A study of Coturnix japonica with 16 samples.

Results

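Ethinylestradiol was compared with its corn oil solvent in the livers of 9 of the 16 adult Japanese quail (Coturnix japonica) in the series, those whose sample names carry the numbers 1 to 3. They are 1 of 2 classes of birds that differ in Z-linked expression, and no value of the comparison between dosed and solvent birds was used to choose them. Ethinylestradiol is the synthetic estrogen of many contraceptive pills. The dosed birds were 3 quail given 0.5 mg/kg and 3 given 5 mg/kg, which are pooled as 6 dosed birds unless a dose is named, and the other 3 received corn oil alone. All 9 were 12 weeks old, were kept at 8 hours of light a day, and were fasted for 16 hours before a single gavage of 4 mL/kg into the crop. RNA was taken from the left lobe of the liver. No source used here gives the sex of the birds or the interval between dosing and sampling, so the comparison speaks for 1 unstated time after 1 dose.

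In egg-laying vertebrates estrogen reaches the hepatocyte through nuclear estrogen receptors, which bind DNA and recruit coactivators. There it switches on the genes of the yolk precursors, the vitellogenins and the lipoprotein apovitellenin, and raises the output of lipids and secreted proteins that fill the growing yolk. The liver of a bird kept on short days makes little of these products until estrogen is given, and males, which carry 2 Z chromosomes against 1 in females, respond to the hormone as well. The comparison asks what a single oral dose did to hepatic transcripts in 1 of the 2 kinds of bird in the series.

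The 9 birds are the class with the higher Z-linked expression, which is part of how the class is defined and is given only as a description. For 608 Z-linked genes, each library's median log2 deviation from the mean of all 16 libraries was 0.14 to 0.27 in the 9 birds described here. It was -0.32 to -0.16 in the 7 birds numbered 4 to 6, with no overlap. The pattern held in dosed and solvent birds alike. It was not used to infer a sex, and the birds are called by their numbers.

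**Figure D1:**
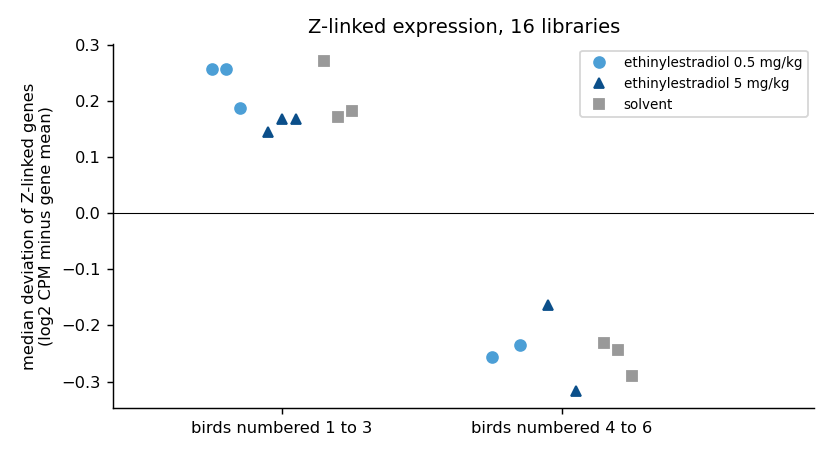
Median deviation of 608 Z-linked genes from their means over all 16 libraries (y axis, log2 CPM) for birds numbered 1 to 3 and 4 to 6, with 1 point per library; circles are 0.5 mg/kg, triangles 5 mg/kg and squares solvent. The 9 libraries numbered 1 to 3 sit at 0.14 or above and the 7 numbered 4 to 6 at -0.16 or below.

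Library totals were 15172994 to 46192717 estimated counts in the 6 dosed birds and 28985614 to 38156083 in the 3 solvent birds. Mitochondrial transcripts took 9.21 to 13.7% of counts in dosed birds and 8.91 to 11.3% in solvent birds. Albumin, the main plasma protein of hepatocytes, took 8.24 to 11.3% in dosed birds and 6.98 to 12.0% in solvent birds. Correlations of log2 CPM, where CPM is a gene's count scaled to a common library size, between the 9 libraries were 0.914 to 0.962, and no 2 libraries held the same values.

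Solvent replicate 1 stood apart from the other 8 birds. In it 408 genes exceeded 2 times the highest level of any other bird, against 18 to 69 genes in each of the others. It also lay at -86.6 on the first principal component, which held 25.0% of the variance. Its excess included interferon-induced genes. RSAD2, an antiviral enzyme, was at 1.83 to 7.57 CPM in the 6 dosed birds, at 1283 CPM in solvent replicate 1 and at 4.02 and 2.18 CPM in the other solvent birds. Since solvent replicate 1 is 1 of only 3 control birds, results that rest on it are given with and without it.

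A dosed bird, 5 mg/kg replicate 1, stood apart in another way, in a few genes without a symbol that were named after their values were seen. LOC107317565 on chromosome 8 was at 1.79, 2.9998 and 1.48 CPM at 0.5 mg/kg and at 7445, 25.6 and 4.84 CPM at 5 mg/kg, against 0.901, 0.177 and 0.429 CPM in solvent birds. LOC107319873 on chromosome 1 was at 3.87, 4.02 and 1.96 CPM at 0.5 mg/kg and at 6705, 11.3 and 3.44 CPM at 5 mg/kg, against 1.59, 0.708 and 1.0009 CPM in solvent birds. Each of the 6 dosed birds lay above each solvent bird for both genes, but 5 mg/kg replicate 1 was the only bird over 26 CPM.

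Their log2 fold changes were 11.25 (SE 4.18) and 9.98 (SE 3.89), and without 5 mg/kg replicate 1 they were 3.86 and 2.16. In birds 4 to 6 all 4 dosed birds again lay above all 3 solvent birds for both genes, at 2.04 to 4.95 against 0.114 to 1.33 CPM for LOC107317565 and at 2.91 to 6.73 against 1.16 to 2.71 CPM for LOC107319873. LOC107317352, also on chromosome 8, reached 529 CPM in 5 mg/kg replicate 1, against 0.409 to 1.96 CPM in the other 5 dosed birds and 0.143 to 1.36 CPM in solvent birds.

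**Figure D2:**
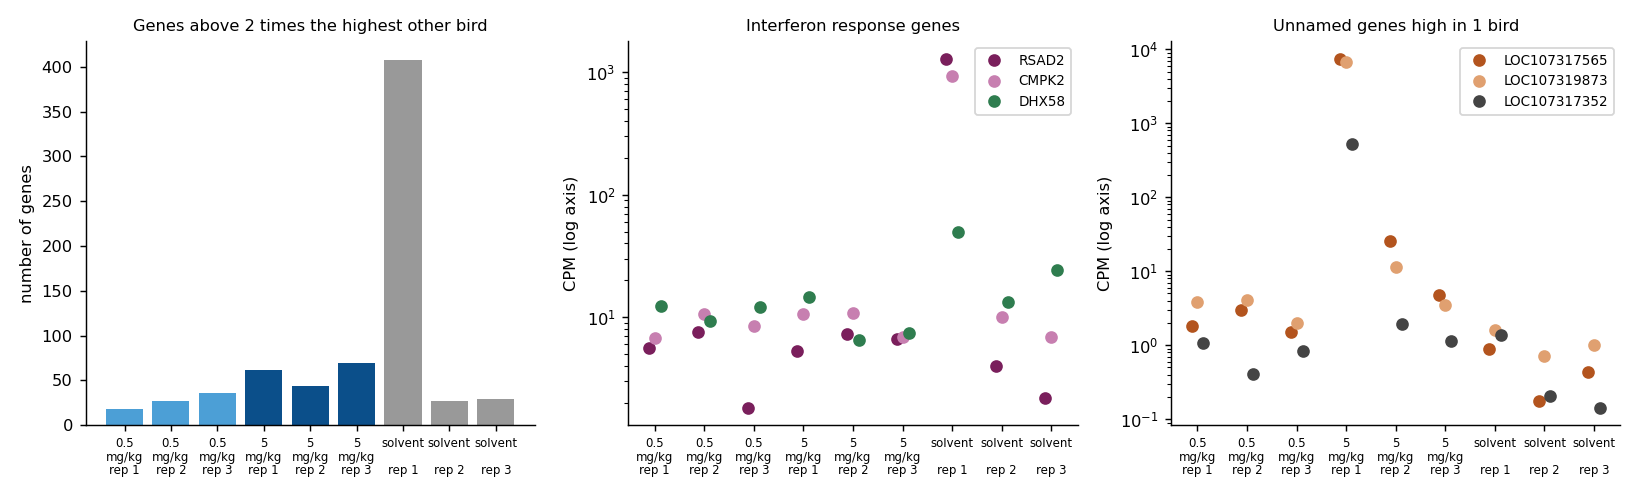
Left, number of genes whose CPM exceeds 2 times the highest value of the other 8 birds, 1 bar per library. Middle and right, CPM on a log axis of 3 interferon response genes and of 3 genes without a symbol, with 1 point per gene and library, ordered as 0.5 mg/kg, 5 mg/kg and solvent. Solvent replicate 1 has 408 such genes and 1283 CPM of RSAD2, and 5 mg/kg replicate 1 has 7445 CPM of LOC107317565.

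No gene passed the test between dosed and solvent birds. Of 13837 genes tested, 0 had an adjusted p under 0.05 in edgeR's quasi-likelihood test with Benjamini-Hochberg adjustment (0%), and the lowest adjusted p was 0.354. At an unadjusted p under 0.05, 404 genes were higher in dosed birds (2.92%) and 657 were lower (4.75%), 1061 in all (7.67%). Without solvent replicate 1 there were 658 such genes, 335 higher and 323 lower. limma-voom likewise found 0, and 1034 genes were at an unadjusted p under 0.05. DESeq2 called 48 of 18549 genes, 5183 of which had no adjusted p. Of its 48 calls, 28 were higher and 20 lower. The median log2 fold change over all genes was -0.004 and the median standard error (SE) was 0.26. The biological coefficient of variation between birds was 37.9%.

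All 6 dosed birds lay above all 3 solvent birds for 205 genes (1.48%) and below them for 195 (1.41%). Birds numbered 4 to 6, 4 dosed and 3 solvent, share no bird with these, so the genes could be looked up there. Of the 205 genes, 202 were tested in birds 4 to 6, and 146 of these (72.3%) were again higher in dosed birds, against 50.7% of all 13211 genes tested in both. Of the 195, 185 were tested and 134 (72.4%) were again lower, against 49.3% of all genes. In the first set 19 genes (9.41%) again had every dosed bird above every solvent bird, against 2.38% of the genes tested in both (2.36% of those tested in birds 4 to 6), and in the second 16 (8.65%) had every dosed bird below, against 2.86% (2.87%). Among the 48 genes of DESeq2, 45 were tested in birds 4 to 6 and 38 had the same sign there. Of all genes tested in both classes, 50.7% were higher and 49.3% lower in dosed birds 4 to 6. DESeq2 called 49 of 18347 genes in birds 4 to 6, 4314 of which had no adjusted p. It called 4 genes in both classes (BBS2, SBNO2, SIK1 and CHKA).

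Genes with the lowest p among those whose groups did not overlap are described by their levels. They were named by that rule, so the separation of the groups in birds 1 to 3 is how they were chosen. DESeq2 called 22 of these 24 genes, against 48 of all 18549 in its fit, and edgeR called 0. DESeq2's adjusted p was 9.51e-08 for OTOP2, 6.96e-07 for NRG2 and 7.98e-07 for SOCS2. Its calls use the same birds that chose the genes, so they are no separate support. NRG2 (gene 107320425, chromosome 13), neuregulin 2, a secreted ligand of ErbB receptors, was at 22.7, 32.2 and 25.4 CPM at 0.5 mg/kg and at 27.9, 50.6 and 16.8 CPM at 5 mg/kg, against 4.83, 8.19 and 5.90 CPM in solvent birds. The lowest dosed bird had about as much as the solvent birds' highest level multiplied by 2. Its log2 fold change was 2.22 (SE 0.35, adjusted p 0.354) in birds 1 to 3 and 1.03 (SE 0.60) in birds 4 to 6.

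OTOP2 (gene 107322369, chromosome 18), an otopetrin, a family of proton channels, was at 5.60, 12.4 and 5.94 CPM at 0.5 mg/kg and at 15.2, 27.9 and 6.74 CPM at 5 mg/kg, against 0.809, 0.910 and 1.36 CPM in solvent birds. The log2 fold change was 3.60 (SE 0.61, adjusted p 0.407), and 1.21 (SE 0.93) in birds 4 to 6. EEPD1 (chromosome 2), a protein with an endonuclease fold, was at 26.7 to 56.6 CPM in dosed birds and at 12.1 to 19.98 CPM in solvent birds. Levels at the lower dose, 38.5 to 47.1 CPM, lay inside the range of the higher dose for EEPD1.

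BBS2 (gene 107319174, chromosome 11), a subunit of the complex that sorts membrane proteins at cilia, was at 17.1, 31.1 and 31.2 CPM at 0.5 mg/kg and at 31.4, 115 and 22.9 CPM at 5 mg/kg, against 2.91, 7.31 and 4.29 CPM in solvent birds. Its log2 fold change of 3.10 (SE 0.67) was 2.48 without 5 mg/kg replicate 2 and 2.004 (SE 0.47) in birds 4 to 6. LOC107319226, also on chromosome 11 and named after its values were seen, was at 8.32 to 134 CPM at 0.5 mg/kg and 16.997 to 338 CPM at 5 mg/kg, against 1.11 to 2.31 CPM in solvent birds. Both genes varied several-fold among dosed birds.

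The remaining 8 genes of the higher set had log2 fold changes of 0.60 to 1.39, all with an adjusted p of 0.561. ARID5A, which stabilises interleukin-6 messenger RNA in mice, was at 25.1 to 68.6 CPM in dosed birds and 13.3 to 17.8 CPM in solvent birds (log2 fold change 1.39, SE 0.34). FBXO31, a substrate adaptor of ubiquitin ligase, was at 75.5 to 121 CPM in dosed birds and 34.6 to 52.6 CPM in solvent birds (0.996, SE 0.21), and CDK17, a PCTAIRE-type kinase, at 30.2 to 55.3 and 19.5 to 28.1 CPM (0.91, SE 0.22). Both were also without overlap in birds 4 to 6, at 0.37 and 0.68. MPP7, a junction scaffold, was at 0.88 (SE 0.17) here and at -0.46 (SE 0.39) in birds 4 to 6, so its direction was not shared. The importin IPO5 (0.75), the exchange factor NGEF (0.60), WDR25 (0.96) and FGA (1.06) complete the set.

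**Figure D3:**
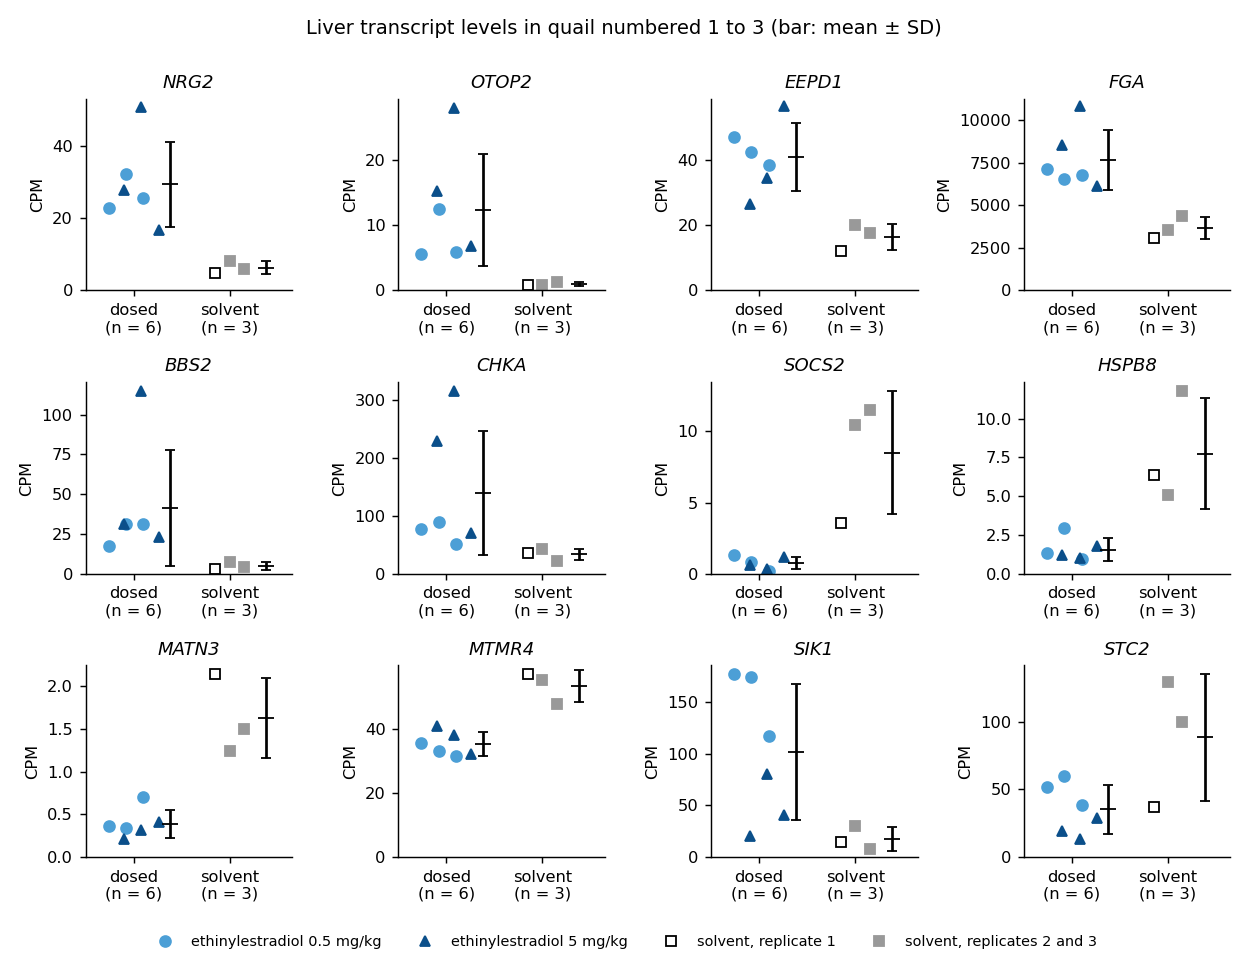
CPM per bird (y axes, linear from 0) for 12 genes in the 6 dosed and 3 solvent birds numbered 1 to 3; circles are 0.5 mg/kg, triangles 5 mg/kg, the open square solvent replicate 1 and grey squares the other solvent birds, with mean ± SD beside each group. Groups do not overlap for NRG2, OTOP2, EEPD1, FGA, BBS2 and CHKA, where dosed birds are higher, or for SOCS2, HSPB8, MATN3 and MTMR4, where they are lower; for SIK1 and STC2 they overlap.

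SOCS2 (gene 107311591, chromosome 1), the feedback inhibitor of growth hormone signalling, was lower in every dosed liver than in any solvent liver. It was at 1.29, 0.818 and 0.175 CPM at 0.5 mg/kg and at 0.644, 0.342 and 1.16 CPM at 5 mg/kg, against 3.56, 10.4 and 11.5 CPM in solvent birds. The log2 fold change was -3.56 (SE 0.54, adjusted p 0.354), and -3.92 without solvent replicate 1, the lowest of the controls. In birds 4 to 6 it was -0.68 (SE 0.76), and the difference between the classes had an unadjusted p of 0.0122 and an adjusted p of 0.999 in edgeR's test.

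HSPB8 (gene 107321451, chromosome 15), a small heat shock protein first known as an estrogen-induced gene in human breast cancer cells, was at 1.36, 2.93 and 0.960 CPM at 0.5 mg/kg and at 1.23, 1.002 and 1.77 CPM at 5 mg/kg, against 6.35, 5.06 and 11.8 CPM in solvent birds. Its log2 fold change was -2.34 (SE 0.38) here and -2.33 (SE 1.39) in birds 4 to 6, where 1 solvent bird was at 61.8 CPM and the groups overlapped. MATN3 (chromosome 3), a matrilin of cartilage matrix, was low throughout, at 0.215 to 0.698 CPM in dosed birds and 1.24 to 2.15 CPM in solvent birds (-2.06, SE 0.39).

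MTMR4 (gene 107322630, chromosome 19), a phosphatase of endosomal phosphoinositides, was among the lower set. It was at 35.5, 33.1 and 31.4 CPM at 0.5 mg/kg and at 40.9, 38.05 and 32.2 CPM at 5 mg/kg, against 57.2, 55.4 and 47.7 CPM in solvent birds. The log2 fold change was -0.60 (SE 0.13) in birds 1 to 3 and -0.59 (SE 0.16) in birds 4 to 6, where all 4 dosed birds also lay below all 3 solvent birds. It ran from -0.66 to -0.54 when 1 bird was left out.

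The other 8 genes of the lower set had log2 fold changes of -1.91 to -0.62, again with an adjusted p of 0.561. They were RPH3AL, a Rab effector of exocytosis (-1.91), FRY (-1.72), the calcium channel subunit CACNB2 (-1.40), the lipid kinase PI4K2A (-1.05), the secreted nuclease DNASE1L3 (-1.05; -0.68 without solvent replicate 3), PLBD1 (-0.71), the phosphatase regulator PPP1R7 (-0.63) and the Z-linked CCBE1, a secreted factor of lymphatic growth (-0.62). For FRY and PI4K2A solvent replicate 1 was the highest bird, at 17.9 and 66.8 CPM, and without it the log2 fold changes were -0.97 and -0.63. All 12 genes of the lower set were also below 0 in birds 4 to 6, against 49.3% of all genes tested in both classes. In the higher set 11 of the 12 were above 0 there, against 50.7%. Several were near 0 in birds 4 to 6, such as FRY at -0.03 (SE 0.40), WDR25 at 0.05 (SE 0.42) and IPO5 at 0.06 (SE 0.30). For most of these genes the groups overlapped there.

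**Figure D4:**
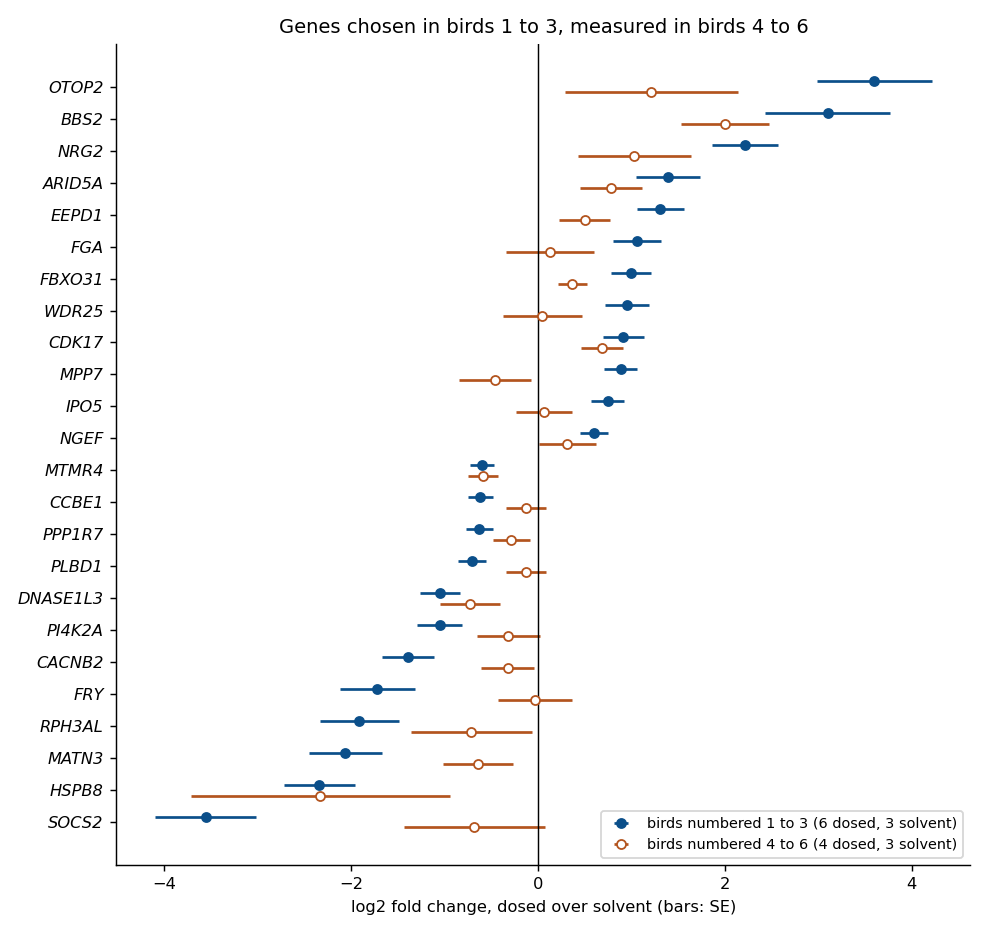
Log2 fold change of dosed over solvent birds (x axis, with SE bars) for the 24 genes named by lowest p among those without overlap, in birds 1 to 3 (filled) and in birds 4 to 6 (open). Of the 24, 23 have the same sign in both classes; MPP7 does not.

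Genes without overlap in both classes included several outside that set, named after their values were seen. IGF2, insulin-like growth factor 2, was at 22.2 to 36.8 CPM in dosed birds and 39.6 to 76.4 CPM in solvent birds (-0.79, SE 0.24; -0.42 without solvent replicate 1), and at -0.26 (SE 0.14) in birds 4 to 6. SMAD6, an inhibitor of bone morphogenetic protein signalling, was at 9.13 to 17.5 CPM in dosed birds and 17.9 to 28.8 CPM in solvent birds (-0.89, SE 0.21), and at -0.64 (SE 0.19) in birds 4 to 6. PLPP3, a lipid phosphatase of the plasma membrane, was at 82.2 to 257 CPM in dosed birds and 45.8 to 64.3 CPM in solvent birds (1.14, SE 0.37), and at 0.91 (SE 0.20) in birds 4 to 6.

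The genes known from all 16 birds to be higher at 5 mg/kg were also looked at here, and since these 9 birds are part of the 16 their direction is no independent result. CHKA, the choline kinase that opens phosphatidylcholine synthesis, was at 78.1, 89.7 and 51.5 CPM at 0.5 mg/kg and at 229, 317 and 71.2 CPM at 5 mg/kg, against 35.4, 42.2 and 22.5 CPM in solvent birds (log2 fold change 2.06, SE 0.62). SBNO2, a transcriptional coregulator, was at 43.6 to 151 CPM in dosed birds and 17.98 to 28.7 CPM in solvent birds (1.60, SE 0.40). The magnesium transporter SLC41A1 was at 72.5 to 309 CPM in dosed birds and 35.9 to 54.7 CPM in solvent birds (1.48, SE 0.49). These 3 did not overlap between groups in either class. SARM1, an NAD-cleaving enzyme, and LOC107305801 were at 1.72 (SE 0.63; 1.10 without 5 mg/kg replicate 2) and 1.48 (SE 0.49), and both overlapped, in LOC107305801 because solvent replicate 1 held 18.4 CPM, more than the lowest dosed bird at 10.1 CPM. Without solvent replicate 1 LOC107305801 was at 2.18.

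Neither estrogen receptor separated dosed from solvent birds. ESR1, the receptor best known for yolk gene induction, was at 59.8, 64.4 and 61.5 CPM at 0.5 mg/kg and at 48.1, 57.1 and 34.3 CPM at 5 mg/kg, against 31.1, 47.0 and 51.5 CPM in solvent birds (a log2 fold change of 0.33 with an SE of 0.23 and an adjusted p of 0.770). All 3 birds at 0.5 mg/kg were above all solvent birds, as was 1 of the 3 at 5 mg/kg. ESR2, the second receptor, was at 94.6, 130 and 74.6 CPM at 0.5 mg/kg and at 23.9, 43.1 and 19.96 CPM at 5 mg/kg, against 13.1, 69.9 and 33.0 CPM in solvent birds (0.73, SE 0.66, adjusted p 0.827). Without solvent replicate 1 ESR1 was at 0.15 and ESR2 at 0.33, and ESR2 ran from 0.33 to 1.48 as single birds were left out. Between the doses ESR2 differed by -1.78 (5 mg/kg over 0.5 mg/kg, SE 0.55), with every bird at 5 mg/kg below every bird at 0.5 mg/kg, an unadjusted p of 0.00959 and an adjusted p of 0.869.

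The progesterone receptor PGR, an estrogen target in the oviduct, was low in all birds, at 0.611 to 2.01 CPM in dosed birds and 0.936 to 1.82 CPM in solvent birds (-0.48, SE 0.42). The coactivator NCOA1 was at 37.4 to 51.0 CPM in dosed birds and 29.0 to 30.9 CPM in solvent birds (0.45, SE 0.13, adjusted p 0.561), without overlap. Of 15 tested receptors and coregulators, 10 were higher and 5 lower in dosed birds, with a median of 0.15, 1 member at an unadjusted p under 0.05 and 0 past the test. Among all genes 49.4% were above 0, and 7.67% were at an unadjusted p under 0.05 in edgeR's test.

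Of 30 yolk precursor and estrogen-induced genes, the name table holds 20, of which 18 were tested, and the list does not speak for VTG1, VTG2, VTG3 or APOV1, which were not analysed here by name. Dosed birds were higher in 11 and lower in 7, with a median of 0.20 and 0 past the test. Set against solvent by dose, the list's median was -0.05 at 0.5 mg/kg (8 of 18 above 0) and 0.31 at 5 mg/kg (12 of 18). In birds 4 to 6 it was 0.05, with 9 of 18 above 0. APOB, the protein of very low density lipoprotein that also enters yolk, was at 3966, 3362 and 2970 CPM at 0.5 mg/kg and at 4899, 3892 and 2543 CPM at 5 mg/kg, against 2530, 2336 and 3514 CPM in solvent birds (0.37, SE 0.26). The members with the lowest p were the lower ones. After HSPB8 came KLF9, a transcription factor of the Krüppel family, at 4.90 to 13.8 CPM in dosed birds and 10.05 to 42.5 CPM in solvent birds (-1.59, SE 0.43; -0.11, SE 0.26, in birds 4 to 6). STC2, stanniocalcin 2, was at 38.8 to 59.6 CPM at 0.5 mg/kg and 13.05 to 28.5 CPM at 5 mg/kg, against 37.0, 129 and 99.5 CPM in solvent birds (-1.33, SE 0.48). It was at -1.69 without solvent replicate 1 and at -0.18 (SE 0.56) in birds 4 to 6. GREB1, an estrogen-induced coregulator in human cells, was at 1.26 to 2.40 CPM in dosed birds and 1.93 to 2.58 CPM in solvent birds (-0.35, SE 0.28; -0.68, SE 0.29, in birds 4 to 6). ZP2, an egg envelope protein, was at 0.524 to 11.1 CPM in dosed birds and 0.572 to 1.49 CPM in solvent birds (1.93, SE 0.91). It was at 1.09 without 5 mg/kg replicate 1 and at 0.31 (SE 0.87) in birds 4 to 6.

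Acute phase, coagulation and complement genes had the largest share of members above 0 among the pathway lists. Of 31 tested, 29 were above 0, with a median of 0.53, 13 at an unadjusted p under 0.05, all higher, and 0 past the test. Among all genes 49.4% were above 0, and 2.92% were higher at an unadjusted p under 0.05 in edgeR's test. Without solvent replicate 1 the list's median was 0.32 with 27 of 31 above 0, and in birds 4 to 6 it was 0.09 with 22 of 31. The 3 chains of fibrinogen, the clotting protein, had like differences. FGA was at 7128, 6532 and 6786 CPM at 0.5 mg/kg and at 8542, 10873 and 6135 CPM at 5 mg/kg, against 3113, 3562 and 4389 CPM in solvent birds (1.06, SE 0.26). FGB was at 7539 to 14624 CPM in dosed birds and 3713 to 6346 CPM in solvent birds (1.004, SE 0.30), and FGG at 4804 to 9703 and 2671 to 3581 CPM (1.04, SE 0.28). In birds 4 to 6 the same 3 genes were at 0.13 (SE 0.47), 0.19 (SE 0.48) and 0.14 (SE 0.52). There solvent replicate 4 was well above the other solvent birds in all 3. It held 10058 CPM of FGA (3138 and 4078 in the others), 13925 CPM of FGB (4034 and 5018) and 9416.5 CPM of FGG (2400 and 2833).

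Complement C3 was at 2038 to 6189 CPM in dosed birds and 847 to 2251 CPM in solvent birds (1.24, SE 0.42), with overlap. It was at 0.95 without solvent replicate 1 and at 0.09 in birds 4 to 6, and was named after its values were seen. HPX, the heme carrier hemopexin, likewise named, was without overlap at 4784 to 30051 CPM in dosed birds and 1064 to 4152 CPM in solvent birds (2.02, SE 0.73; 1.29 without 0.5 mg/kg replicate 3), and was at -0.03 in birds 4 to 6. MATN4, which is in none of the lists and was also named after its values were seen, reached 2722 CPM in 0.5 mg/kg replicate 3, the bird with the highest HPX, against 11.6 to 89.9 CPM in the other dosed birds and 2.93 to 7.32 CPM in solvent birds.

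Cholesterol synthesis genes were higher in 17 of 21 with a median of 0.74, the highest median of the lists, and 0 past the test. The median was 0.59 without solvent replicate 1 and 0.27 in birds 4 to 6, where 19 of 21 were above 0. SCAP, the sterol sensor that escorts the transcription factor SREBP, was at 61.3, 41.0 and 49.6 CPM at 0.5 mg/kg and at 86.7, 41.8 and 92.9 CPM at 5 mg/kg, against 32.3, 29.2 and 35.9 CPM in solvent birds (0.94, SE 0.29). HMGCS1, the synthase ahead of the rate-limiting step, was at 1027 to 2171 CPM in dosed birds and at 424, 1673 and 326 CPM in solvent birds (1.04, SE 0.50). Other members spread widely among the dosed birds. FDFT1, squalene synthase, was at 17.1 CPM in 5 mg/kg replicate 2 and 394 CPM in replicate 3, against 42.9 to 57.6 CPM in solvent birds (1.60, SE 0.82; 1.02 without 5 mg/kg replicate 3), and INSIG1, the brake on SCAP, at 150 and 1310 CPM in the same birds, against 225 to 483 CPM (1.03, SE 0.53). Over the list those 2 birds lay at -1.65 and 1.31 from the gene means on the log2 scale.

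Fatty acid oxidation genes were higher in 21 of 27, with a median of 0.29, which was 0.06 without solvent replicate 1, and 0 past the test. In birds 4 to 6 the list's median was -0.02, with 11 of 27 above 0. ECI2, an isomerase of unsaturated fatty acids, was at 570 to 719 CPM at 0.5 mg/kg and at 2862, 3577 and 534 CPM at 5 mg/kg, against 299 to 496 CPM in solvent birds (1.85, SE 0.74). HADHB, a subunit of the trifunctional protein of beta-oxidation, followed it, at 524 to 654 CPM and at 1272, 1674 and 579 CPM, against 316 to 514 CPM (0.97, SE 0.43). In birds 4 to 6 ECI2 was at -0.83 and HADHB at -0.15. Of 20 genes for making fatty acids and triacylglycerol, 14 were above 0, and their median of 0.14 was -0.01 without solvent replicate 1.

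**Figure D5:**
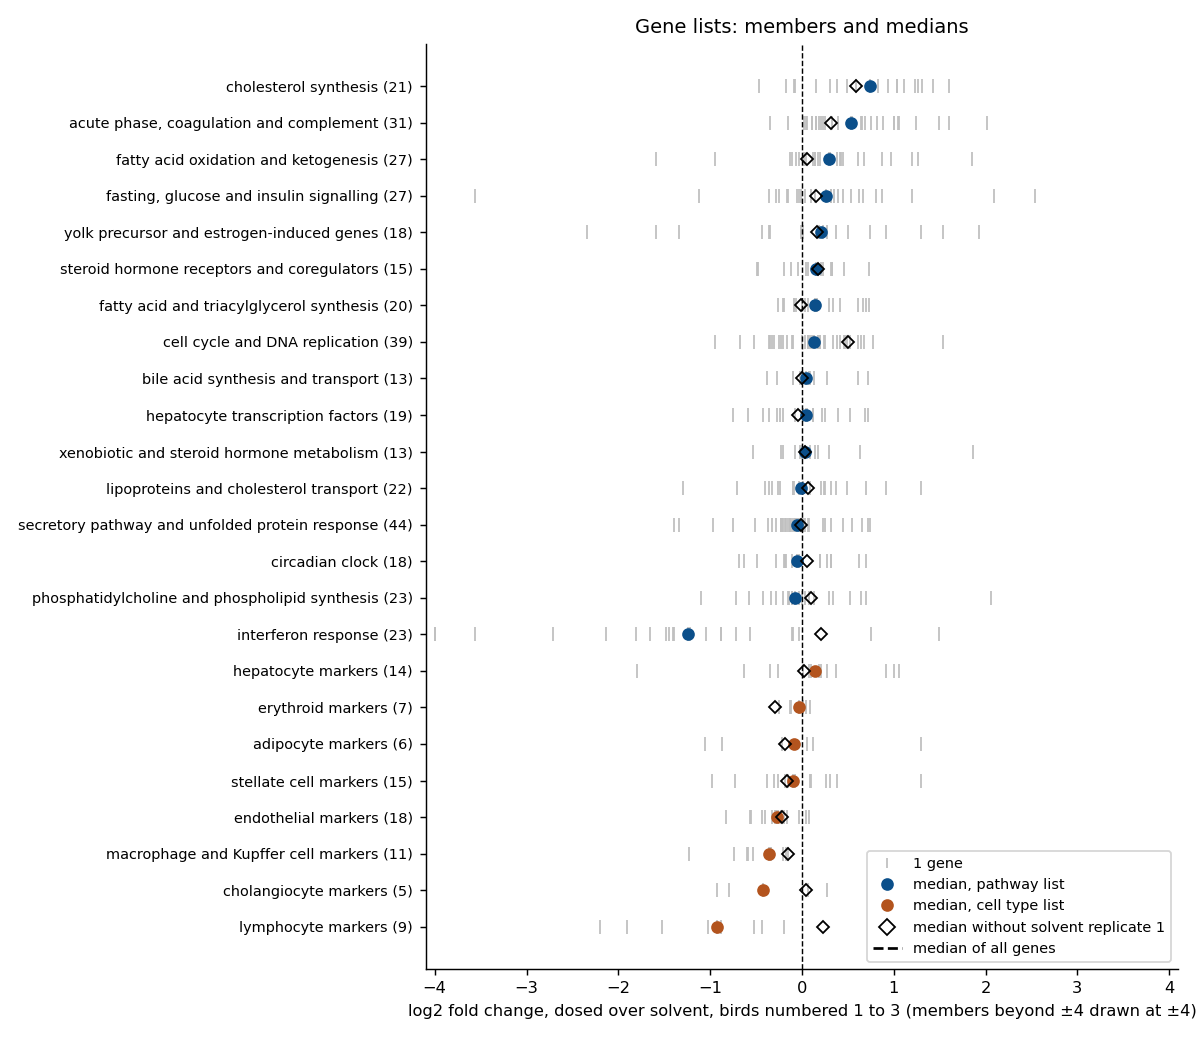
Log2 fold change of dosed over solvent birds (x axis) for members of 24 gene lists (grey ticks; numbers tested in brackets), with the median over all 9 birds (filled circles) and without solvent replicate 1 (open diamonds). The dashed line is the median of all genes at -0.004. Cholesterol synthesis (0.74) and acute phase (0.53) lie furthest right, and interferon response lies at -1.24 with solvent replicate 1 and at 0.20 without it.

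Among genes of fasting, glucose and insulin signalling, 17 of 27 were higher with a median of 0.27 (16 of 27 and 0.15 without solvent replicate 1), and 0 passed the test. SIK1, a cyclic AMP-induced kinase, stood at 177, 174 and 117 CPM at 0.5 mg/kg and at 19.8, 80.4 and 40.8 CPM at 5 mg/kg, against 14.5, 30.3 and 7.51 CPM in solvent birds (2.54, SE 0.74). IGFBP1, a fasting-induced binding protein of insulin-like growth factors, was at 93.3, 97.97 and 68.0 CPM at 0.5 mg/kg and at 12.7, 60.2 and 48.1 CPM at 5 mg/kg, against 17.1, 21.0 and 6.51 CPM in solvent birds (2.09, SE 0.60). In both genes the 3 birds at 0.5 mg/kg were highest and 5 mg/kg replicate 1 lay within the solvent range. In birds 4 to 6 their log2 fold changes were 2.62 (SE 0.63) and 1.84 (SE 1.04). KLF15, a transcription factor of gluconeogenesis, was lower and without overlap, at 56.1 to 122 CPM in dosed birds and 134 to 210 CPM in solvent birds (-1.12, SE 0.27). In birds 4 to 6 KLF15 was at -0.19 (SE 0.22) and the groups overlapped. MYC, a growth-promoting transcription factor from the cell cycle list, also had the 3 birds at 0.5 mg/kg highest. It was at 41.0 to 55.1 CPM at 0.5 mg/kg and 6.04 to 35.4 CPM at 5 mg/kg, against 5.36 to 17.2 CPM in solvent birds (1.54, SE 0.62).

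Of 43 genes of xenobiotic and steroid hormone metabolism, the name table holds 16, of which 13 were tested. Among these 7 were above 0 (median 0.04), and none passed the test. The list does not speak for the missing members, such as CYP1A4, CYP3A4, NR1I2 and UGT1A1. NR1H4, the bile acid receptor, was at 59.3 to 120 CPM in dosed birds and 33.8 to 58.5 CPM in solvent birds (0.72, SE 0.26). Of the 22 members of its bile acid list 13 were tested, with 7 above 0 and a median of 0.05 (0.002 without solvent replicate 1). GATA4, a transcription factor of liver development, was at 13.1 to 20.2 CPM in dosed birds and 23.6 to 27.9 CPM in solvent birds (-0.58, SE 0.17), while its list of hepatocyte factors had 11 of 19 above 0 and a median of 0.04 (6 of 19 and -0.04 without solvent replicate 1). HSPA5, the chaperone BiP, was at 295 to 1274 CPM in dosed birds and at 3254, 770 and 1872 CPM in solvent birds (-1.39, SE 0.50; -0.80 without solvent replicate 1) and at -1.50 (SE 0.35) in birds 4 to 6.

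The secretory list of HSPA5 had 16 of 44 members above 0, with a median of -0.06 (18 of 44 and -0.01 without solvent replicate 1), and 10 of 44 in birds 4 to 6. Phospholipid synthesis had 9 of 23 above 0 (median -0.08), lipoproteins 11 of 22 (-0.01) and the circadian clock 7 of 18 (-0.06). Without solvent replicate 1 all 3 medians were above 0, with 14 of 23 (0.09), 12 of 22 (0.06) and 10 of 18 (0.06). None of their members passed the test.

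Interferon response genes were lower in dosed birds in 21 of 23, with a median of -1.24, and this rested on solvent replicate 1. Without that bird 16 of 23 were above 0 and the median was 0.20. CMPK2, a mitochondrial kinase induced by interferon, was at 6.82 to 10.8 CPM in dosed birds, at 923 CPM in solvent replicate 1 and at 10.1 and 6.90 CPM in the other solvent birds. DHX58, an RNA sensor, was at 6.56 to 14.8 CPM in dosed birds, at 49.7 CPM in solvent replicate 1 and at 13.4 and 24.1 CPM in the others. For the cell cycle, 25 of 39 genes were above 0 (median 0.13), and 32 of 39 (median 0.50) without the same bird.

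Markers of other liver cells were examined in the same birds, and in whole liver fewer cells of a type and less RNA per cell cannot be told apart. Hepatocyte markers had 10 of 14 above 0 and a median of 0.14, against 8 of 14 and 0.02 without solvent replicate 1. Endothelial markers were lower in 16 of 18, with a median of -0.27 (-0.22 and 17 of 18 without solvent replicate 1; -0.23 and 16 of 17 in birds 4 to 6). Their summed level was 169 to 225 CPM in dosed birds and 225 to 258 CPM in solvent birds. STAB1, a scavenger receptor of sinusoidal endothelium, was at 33.5 to 48.9 CPM in dosed birds and 52.7 to 72.6 CPM in solvent birds (-0.55, SE 0.15), and at 0.26 (SE 0.26) in birds 4 to 6.

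Macrophage and Kupffer cell markers were lower in 11 of 11, with a median of -0.36, and without solvent replicate 1 in 7 of 11, with a median of -0.16. In birds 4 to 6, 1 of 11 was above 0 and the median was -0.33. Their sum was 388 to 810 CPM in dosed birds and 560 to 1289 CPM in solvent birds. CTSS, a lysosomal protease, was at 31.9 to 59.3 CPM in dosed birds and at 219, 59.3 and 70.1 CPM in solvent birds. Lymphocyte markers were lower in 9 of 9 (median -0.93), with CD3E at 0.114 to 2.18 CPM in dosed birds and at 8.64, 0.961 and 0.465 CPM in solvent birds, but without solvent replicate 1 they were higher in 7 of 9 (median 0.22). Of the 6 lymphocyte markers tested in birds 4 to 6, 1 was above 0 (median -0.22).

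Erythroid markers had 3 of 7 above 0 (median -0.03; 1 of 7 and -0.30 without solvent replicate 1). Set against solvent by dose they were above 0 in 6 of 7 at 0.5 mg/kg (median 0.46) and in 0 of 7 at 5 mg/kg (-0.92). Birds within a dose differed widely, however, and the doses overlapped. The list's median log2 deviation from the gene means was -0.75, 0.87 and 1.51 in the birds at 0.5 mg/kg. It was -0.47, -1.54 and -0.03 at 5 mg/kg and -0.46, 0.66 and 0.06 in solvent birds. Stellate cell markers had 6 of 15 above 0 (-0.10), cholangiocyte markers 2 of 5 (-0.42) and adipocyte markers 3 of 6 (-0.09). Without solvent replicate 1 these medians were -0.16, 0.05 and -0.18. Of the muscle markers 1 was tested. None of the 3 exocrine pancreas markers in the name table passed the filter on low counts, and CELA1 was at 0 in every bird. None of the marker genes passed the test. The part of these cells in the differences of the other lists was not tested.

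Within the class, 5 mg/kg was also compared with 0.5 mg/kg. edgeR called 0 of 13837 genes (0%), with 333 higher (2.41%) and 448 lower (3.24%), 781 in all (5.64%), at an unadjusted p under 0.05. The lowest adjusted p was 0.542. PPM1K, a phosphatase that activates the breakdown of branched-chain amino acids, was at 25.4, 20.8 and 17.8 CPM at 5 mg/kg and at 46.2, 63.8 and 41.9 CPM at 0.5 mg/kg, a difference of -1.25 (SE 0.20, adjusted p 0.637), with solvent birds at 79.5, 74.0 and 76.7 CPM. NOCT, a rhythmic deadenylase-like protein of the liver, was at 9.18, 4.37 and 5.01 CPM at 5 mg/kg and at 29.5, 29.8 and 24.0 CPM at 0.5 mg/kg, a difference of -2.16 (SE 0.43, adjusted p 0.756), with solvent birds at 81.0, 81.0 and 27.6 CPM. Both were named after their values were seen, and in both every bird at 5 mg/kg was below every other bird.

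The difference in effect between the 2 classes of birds was tested in all 16 libraries. edgeR called 0 of 14229 genes (0%), with a lowest adjusted p of 0.999 and 189 higher (1.33%) and 293 lower (2.06%), 482 in all (3.39%), at an unadjusted p under 0.05. The difference was above 0 for 47.2% of genes. The lowest p belonged to ARMH1, at 3.37 to 6.11 CPM in dosed birds and 2.20 to 2.86 CPM in solvent birds of numbers 1 to 3, and at 1.55 to 4.55 CPM in dosed birds and 5.33 to 12.8 CPM in solvent birds of numbers 4 to 6. Both classes were without overlap and in opposite directions, with log2 fold changes of 0.82 (SE 0.24) and -1.52 (SE 0.40). The others chosen by lowest p were MEGF9 (-0.10 in birds 1 to 3 and 0.79 in birds 4 to 6), FGD3 (-1.20 and 1.24), VGLL2 (-0.79, SE 0.92, and 5.64, SE 1.22), GDA (-0.70 and 0.53) and GRXCR2, which was too low to be tested in birds 4 to 6 and in birds 1 to 3 was at -2.86, or -0.28 without solvent replicate 1. VGLL2 varied widely among dosed birds and overlapped in both classes. Dosed birds of numbers 4 to 6 were at 14.9, 23.6, 0.128 and 20.6 CPM, against 0.195 to 0.341 CPM in solvent birds. In numbers 1 to 3 dosed birds were at 0.114 to 9.98 CPM and solvent birds at 8.04 to 8.70 CPM. Within birds 4 to 6 alone edgeR called 0 of 13289 genes (0%), with 309 higher (2.33%) and 317 lower (2.39%), 626 in all (4.71%), at an unadjusted p under 0.05.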

How the data were processed

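The deposited table holds estimated counts per transcript for 16 libraries, made by the authors; the submitters' processing notes name kallisto. No source used here gives its version, the transcriptome release or the strandedness. The 47418 rows were summed to 20308 NCBI gene numbers and rounded, which changed a gene by at most 0.5, and 18900 matched the name table of Coturnix japonica 2.1, used for names and chromosomes only. Kallisto divides reads among similar transcripts, so near-identical or overlapping genes are uncertain. Counts were analysed with edgeR 4.0.16 (quasi-likelihood test, filterByExpr with a minimum count of 10 and a total of 15, TMM) in R 4.3.3, 6 dosed against 3 solvent birds with 7 residual degrees of freedom, and p-values were adjusted over all genes tested. limma 3.58.1 and DESeq2 1.42.0 were alternatives. The script was tested on simulated data. CPM are TMM-scaled, and the log2 values of list deviations used a prior count of 2. Each SE was derived from edgeR's test, as the absolute log2 fold change divided by the square root of the F statistic. P-values set a difference against the spread between these birds, and in the pooled test that spread includes any difference between the doses.

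Named genes were 12 chosen whatever their result, the 12 in each direction with the lowest p among genes with a symbol, a mean of at least 1 CPM and groups without overlap, up to 4 members per list by lowest p, of which those that help describe the list are given, and the 6 with the lowest p for the class difference. Members and lists were chosen with earlier results of these data known, and lists are described by counts and medians with no test of the list. Members absent from the name table or too low to be tested are left out of these counts and medians. A gene that the rule names is not reported here. No sequence is printed. By name, CYP7A1, TTR, APOV1, VTG1, VTG2 and VTG3 were not analysed here.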

Additional observations from a re-analysis of the deposited data

Results flagged for a closer look

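A single dosed bird stood far from the other 5 dosed birds in 18 of the 110 genes examined. Values drawn from 1 normal distribution give such a separation in about 1 in 20 groups. CPM of birds from both doses need not follow such a distribution, so that rate is no measure of chance here. Of the 110 genes, 18 were added after their values were seen, some because 1 bird stood apart, and 8 of the separations are among them. The other 10 are among the 92 genes named by rule.

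5 mg/kg replicate 2 was the bird apart in 8 genes. It held 115 CPM of BBS2 (other dosed birds 17.1 to 31.4), 16.7 CPM of SARM1 (2.05 to 5.29), 151 CPM of SBNO2 (43.6 to 62.4), 309 CPM of SLC41A1 (72.5 to 159), 51.0 CPM of NCOA1 (37.4 to 41.0), 120 CPM of NR1H4 (59.3 to 72.6), 9703 CPM of FGG (4804 to 6259) and 257 CPM of PLPP3 (82.2 to 104). In all 8 it was the highest bird.

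5 mg/kg replicate 1 was apart in 6 genes, with 7445 CPM of LOC107317565 (1.48 to 25.6 in other dosed birds), 6705 CPM of LOC107319873 (1.96 to 11.3), 529 CPM of LOC107317352 (0.409 to 1.96), 185 CPM of LOC107310248 (0.144 to 2.40), 11.1 CPM of ZP2 (0.524 to 3.61) and 2334 CPM of FADS2 (327 to 1000.2). 0.5 mg/kg replicate 3 was apart in 3 genes, with 30051 CPM of HPX (4784 to 8260), 2722 CPM of MATN4 (11.6 to 89.9) and 544 CPM of LOC107305842 (0.0718 to 1.503). 5 mg/kg replicate 3 was apart in RPH3AL, at 5.48 CPM (1.23 to 2.44).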

How the results depend on the processing

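The count of 0 genes in birds 1 to 3 was also 0 with DESeq2's size factors, upper quartile scaling, no filter, limma-voom, 3 dose groups, either dose alone, each bird left out in turn (0 to 0) and, as an alternative added after seeing the data, all 16 birds with a class term. It was 48 with DESeq2 (5183 of its 18549 genes had no adjusted p) and 2 with all 16 libraries in the fit, where NOCT (-2.27) and PPM1K (-1.22) were lower, each at an adjusted p of 0.0492. With 1 bird left out, genes at an unadjusted p under 0.05 numbered 658 (without solvent replicate 1) to 1290 (without solvent replicate 2), against 1061. In the other alternatives they numbered 747 (0.5 mg/kg birds only) to 1352 (all 16 libraries in the fit). In birds 4 to 6 the count of 0 was 49 with DESeq2 and 0 to 1 when 1 bird was left out (VGLL2, without 5 mg/kg replicate 4, the bird numbered 5). For the class difference DESeq2 called 1, ARMH1, at an adjusted p of 0.0265. With the replicate block 0 genes passed in birds 1 to 3, with 982 at an unadjusted p under 0.05. Deviations of same-numbered birds correlated at -0.0975 to 0.219 (9 pairs, 2 of them over 0.1). Those of differently numbered birds correlated at -0.194 to 0.181 (18 pairs, 1 of them over 0.1). Whether same-numbered birds shared more than the number was not tested.

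None of the 24 genes named for their lack of overlap turned direction under any alternative. In subsets of the same 9 birds that choice all but excluded a turn, so this lends the 24 genes no support. ESR2 was at -0.40 at 5 mg/kg alone, FADS2 at -0.11 at 0.5 mg/kg alone, and LOC107305842 at -0.57 at 5 mg/kg alone. With all 16 birds and a class term ARMH1 was at -0.35, MEGF9 at 0.30 and VGLL2 at 1.03. Leaving out 1 bird gave -1.44 to 0.042 for CHPT1, -5.675 to 0.10 for CMPK2, -6.81 to 0.88 for RSAD2, -2.92 to 0.036 for CD3E and -1.33 to 0.047 for SOX9, with each upper value without solvent replicate 1, and -1.08 to 8.82 for LOC107305842, with the lower value without 0.5 mg/kg replicate 3. The causes were not tested. The comparison has 3 solvent birds, 1 of them apart.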

Other observations

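CSF3, granulocyte colony-stimulating factor, in none of the lists and named after its values were seen, was at 15.5, 16.2 and 21.9 CPM at 0.5 mg/kg and at 15.002, 15.8 and 3.78 CPM at 5 mg/kg, against 1.66, 0.683 and 3.82 CPM in solvent birds. Its log2 fold change was 2.85 (SE 0.62), with an adjusted p of 0.561 in edgeR's quasi-likelihood test and 0.000268 in DESeq2, and 1.15 (SE 0.60) in birds 4 to 6. Of the dosed birds 5 of 6 lay above the solvent range.

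Another pair of genes outside the lists was lower without overlap in both classes and was also named after their values were seen. THBD, thrombomodulin, an anticoagulant receptor of endothelium, was at 10.98 to 14.8 CPM in dosed birds and 16.2 to 22.7 CPM in solvent birds (-0.56, SE 0.16), and at -0.22 (SE 0.14) in birds 4 to 6. PALLD, an actin scaffold, was at 9.63 to 17.8 CPM in dosed birds and 19.2 to 37.2 CPM in solvent birds (-1.02, SE 0.24; -0.72 without solvent replicate 1), and at -0.25 (SE 0.13) in birds 4 to 6. SLC66A2, a lysosomal family transporter, was higher without overlap in both classes, at 99.0 to 215 CPM in dosed birds and 70.7 to 90.2 CPM in solvent birds (0.76, SE 0.26), and at 0.62 (SE 0.18) in birds 4 to 6.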
